A study of Mus musculus with 8 samples.

Results

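The phagocyte NADPH oxidase complex was followed in mouse lung through the transcripts of 5 of its genes, Cybb, Cyba, Ncf1, Ncf4 and Rac2. They were chosen by symbol from the known composition of the complex, and are 5 of the 55416 genes counted in each library. RNA-seq of lung tissue was available for 8 mice, 3 of the control group (mice 1, 2 and 4), 3 of the LPS group (mice 1, 6 and 7) and 2 of the LPS/YW3-56 dual-treatment group (mice 2 and 5). The study used YW3-56, an inhibitor of protein arginine deiminases (enzymes that convert arginine to citrulline in proteins), to examine these enzymes and neutrophil extracellular traps in endotoxin shock, in blood, peritoneum and lung. All were female C57BL/6J mice of 6 to 8 weeks, and lungs were taken at 24 h. In the study's survival experiment, median survival was under 24 h with LPS and over 24 h with the dual treatment. The bearing of this on the lungs taken was not tested. LPS, the endotoxin of gram-negative bacteria, was injected into the peritoneum at 35 mg/kg. The dual-treatment group received YW3-56 at 10 mg/kg shortly before the LPS, and the control group received the solvent DMSO and then saline. The LPS group is described as given LPS only, with no mention of DMSO, and no group received YW3-56 without LPS. The methods name 3 sequenced mice per group, whereas a legend of the study and the labels give 2 for the dual treatment. Total counts per library ran from 19061949 to 20908608.

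The complex moves electrons from NADPH across a membrane to oxygen, and the product is superoxide, from which hydrogen peroxide and other reactive oxygen species are formed. Its catalytic core lies in the membrane of the phagosome or the cell surface and is inactive until cytosolic subunits and a Rac GTPase join it. Neutrophils, monocytes and macrophages hold the whole complex, and superoxide made by it is among the signals that lead neutrophils to release extracellular traps. In lung, transcripts of these genes can therefore come from resident macrophages and from neutrophils and monocytes that arrive during inflammation. Other sources of them in lung were not tested.

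The lung label was checked with 7 structural genes. Sftpc, the surfactant protein of alveolar type II cells, lay between 8322 and 24536 CPM (library-scaled counts, with TMM normalization) in all 8 libraries, and Scgb1a1, the secretory protein of club cells, between 22675 and 65313 CPM. A pair of LPS libraries stood apart by transcripts of other tissues. The summed level of 8 squamous epithelium genes was 624 CPM in LPS mouse 6 and 1784 CPM in LPS mouse 7, against 3.86 CPM in LPS mouse 1, 10.5, 15.8 and 16.1 CPM in the controls and 13.2 and 28.6 CPM in the dual-treatment mice. The summed level of 5 skeletal muscle genes was 362 and 995 CPM in the same 2 mice, 15.9 CPM in LPS mouse 1, and between 4.13 and 18.0 CPM in the controls and the dual-treatment mice. The most abundant genes of these lists were Krt13, a keratin of stratified epithelium, and Acta1, the actin of skeletal muscle. Krt13 was at or under 0.297 CPM in the controls and in LPS mouse 1, while Krt4, another keratin of such epithelium, had no count in LPS mouse 1. Their part in the results was not tested, and values without LPS mice 6 and 7 are given for the 5 oxidase genes where a call changed.

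Cybb encodes gp91phox, the flavocytochrome subunit that carries the electrons. Its level was 37.1, 27.0 and 36.2 CPM in control mice 1, 2 and 4, 84.0, 84.3 and 46.3 CPM in LPS mice 1, 6 and 7, and 112 and 144 CPM in dual-treatment mice 2 and 5. The 3 groups did not overlap, with the dual-treatment mice highest and LPS mouse 7 closest to the controls. Mean levels were 33.5 ± 5.59 CPM (SD, n = 3) in controls, 71.5 ± 21.9 CPM (SD, n = 3) after LPS and 128 ± 22.7 CPM (SD, n = 2) after the dual treatment. The log2 fold change (log2FC) was 1.10 ± 0.23 (SE) for LPS against control, with an adjusted p of 0.00216, and 1.93 ± 0.25 for the dual treatment against control, with an adjusted p of 0.00110. Dual-treatment mice exceeded LPS mice by a log2FC of 0.84 ± 0.25, with an adjusted p of 0.0158. That last call was lost without dual-treatment mouse 5, where the log2FC was 0.62 and the lone mouse left is assumed to vary like the other groups, and without LPS mice 6 and 7 together, a setting chosen after seeing the data, where it was 0.60. Over all alternatives its adjusted p ran from 0.000112 to 0.121.

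Cyba encodes p22phox, the small membrane partner that stabilizes gp91phox and docks the cytosolic subunits. It was at 77.6, 67.7 and 81.2 CPM in the controls, 191, 210 and 115 CPM in LPS mice 1, 6 and 7, and 176 and 194 CPM in dual-treatment mice 2 and 5. Every treated mouse was above every control, and the dual-treatment values lay inside the range of the LPS values. Mean levels were 75.5 ± 6.98 CPM (SD, n = 3), 172 ± 50.4 CPM (SD, n = 3) and 185 ± 12.9 CPM (SD, n = 2) in the 3 groups in that order. Cyba rose by a log2FC of 1.19 ± 0.20 with LPS (adjusted p = 0.000554) and of 1.29 ± 0.22 with the dual treatment (adjusted p = 0.00417), both against control. Between dual treatment and LPS the log2FC was 0.10 ± 0.22 with an adjusted p of 0.695, and its 95% interval ran from -0.38 to 0.59.

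Ncf1 encodes p47phox, the organizer subunit that is phosphorylated when the cell is activated and brings the cytosolic subunits to the membrane. Its level was 34.6, 24.5 and 34.4 CPM in control mice, 42.7, 62.9 and 42.8 CPM in LPS mice 1, 6 and 7, and 122 and 112 CPM in dual-treatment mice 2 and 5. The LPS mice were all above the controls, by a narrow margin for mice 1 and 7, and both dual-treatment mice stood far above every LPS mouse. Group means were 31.2 ± 5.76 CPM (SD, n = 3) in controls, 49.5 ± 11.6 CPM (SD, n = 3) after LPS and 117 ± 7.25 CPM (SD, n = 2) after the dual treatment. The log2FC was 0.67 ± 0.18 for LPS against control (adjusted p = 0.00864), 1.91 ± 0.20 for dual treatment against control (adjusted p = 0.000337) and 1.24 ± 0.19 for dual treatment against LPS (adjusted p = 0.000516). The rise with LPS alone was not called when libraries were scaled by their totals only (log2FC 0.39), nor without LPS mice 6 and 7 (log2FC 0.46). Over all alternatives its adjusted p ran from 0.000412 to 0.0962. Ncf1 shares 574 exon bases with Gtf2ird2 on the opposite strand, which had 2534 counts over the 8 libraries. The strand setting of the counting is not given in the sources used here, so reads from that overlap cannot be assigned to a gene.

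Ncf4 encodes p40phox, a cytosolic subunit that binds phosphatidylinositol 3-phosphate and supports oxidase activity on phagosomes. It was at 10.7, 7.42 and 8.69 CPM in the controls, 34.6, 32.5 and 28.8 CPM in LPS mice 1, 6 and 7, and 59.3 and 82.4 CPM in dual-treatment mice 2 and 5. The groups formed 3 separate levels, and the LPS mice were closer to each other than the dual-treatment mice were. Mean levels were 8.94 ± 1.67 CPM (SD, n = 3), 32.0 ± 2.95 CPM (SD, n = 3) and 70.8 ± 16.3 CPM (SD, n = 2). Of the 5 genes Ncf4 had the highest log2FC with the dual treatment against control, 2.99 ± 0.19 (adjusted p = 2.98e-05), which is a 7.92-fold higher level. It rose by a log2FC of 1.84 ± 0.17 with LPS against control (adjusted p = 1.37e-05), and dual-treatment mice exceeded LPS mice by 1.15 ± 0.18 on the log2 scale (adjusted p = 0.000465).

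Rac2 encodes the Rac GTPase of blood cells, which switches on the assembled complex in neutrophils. Its level was 34.0, 25.3 and 27.4 CPM in the controls, 99.6, 131 and 89.3 CPM in LPS mice 1, 6 and 7, and 115 and 149 CPM in dual-treatment mice 2 and 5. All treated mice were far above the controls, whereas LPS mouse 6 lay between the 2 dual-treatment mice. Group means were 28.9 ± 4.55 CPM (SD, n = 3), 107 ± 21.6 CPM (SD, n = 3) and 132 ± 23.8 CPM (SD, n = 2). The log2FC against control was 1.88 ± 0.18 for LPS (adjusted p = 1.37e-05) and 2.19 ± 0.19 for the dual treatment (adjusted p = 0.000136). Between dual treatment and LPS it was 0.31 ± 0.19 with an adjusted p of 0.183 and a 95% interval from -0.11 to 0.73. This difference was called without LPS mouse 6 (log2FC 0.47) and with scaling by library totals only (log2FC 0.63), and its adjusted p over all alternatives ran from 0.0157 to 0.783.

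**Figure D1:**
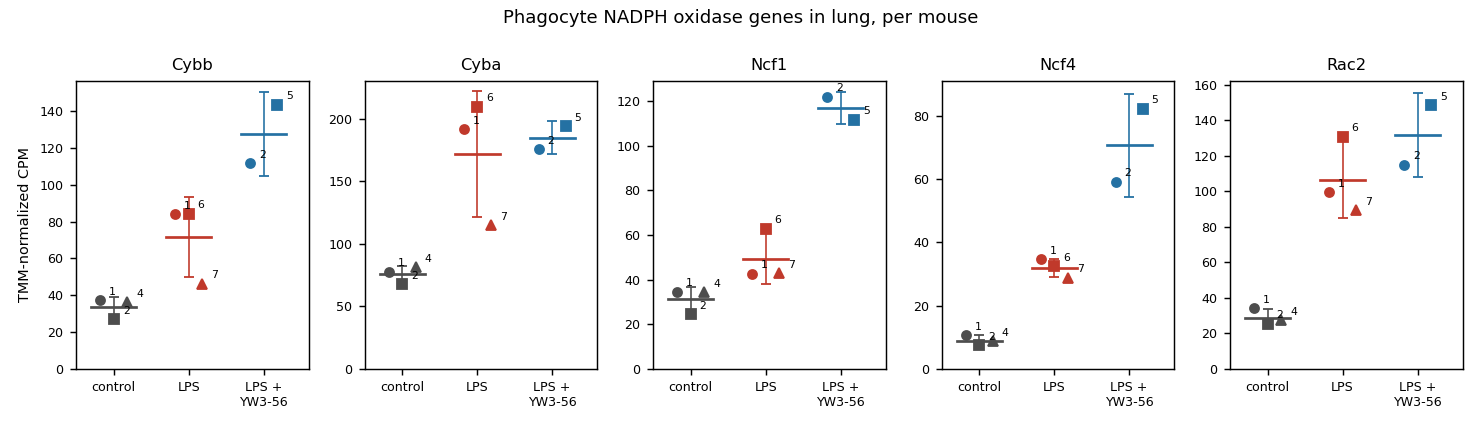
TMM-normalized CPM of the 5 oxidase genes (vertical axes, each starting at 0) in the 8 mice, with 1 point per mouse labelled by its number, a horizontal line at the group mean and a bar of 1 SD on each side. Dual-treatment mice lie above all LPS mice for Cybb, Ncf1 and Ncf4, among them for Cyba, and overlap with them for Rac2.

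Counted over the complex, 5 of 5 genes were higher in LPS mice than in controls with an adjusted p under 0.05. In that comparison 32.6% of the 18560 tested genes were called higher and 33.9% lower, so a call in itself was common. With the dual treatment against control, 5 of 5 oxidase genes were again called higher, beside 9.13% of tested genes called higher and 7.02% lower. Dual treatment against LPS called 3 of 5 higher (Cybb, Ncf1 and Ncf4) and 0 lower, beside 31.7% of tested genes called higher and 27.4% lower. The study's methods name a fold over 2 and a p under 0.05 with DESeq2, without saying whether that p was adjusted. This rule was applied to the fit used here, with the p unadjusted. By it 4 of 5 were higher with LPS against control, beside 18.3% of tested genes higher and 21.8% lower. By that rule 5 of 5 were higher with the dual treatment against control, beside 7.04% higher and 3.43% lower, and 2 of 5 with dual treatment against LPS, beside 20.6% higher and 14.7% lower. The median log2FC of the 5 genes was 1.19, 1.93 and 0.84 in these 3 comparisons in turn, and that of all tested genes was -0.01, 0.00 and 0.06. Members ranked between the 72.6th and the 90.9th percentile of log2FC among tested genes for LPS against control, and between the 93.4th and the 98.8th for the dual treatment against control. For dual treatment against LPS they spread from the 51.5th percentile for Cyba to the 81.9th for Ncf1. The comparisons share mice and are not independent of each other. Since whole lung tissue was sequenced, more phagocytes and more RNA per phagocyte cannot be told apart for any of these genes.

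**Figure D2:**
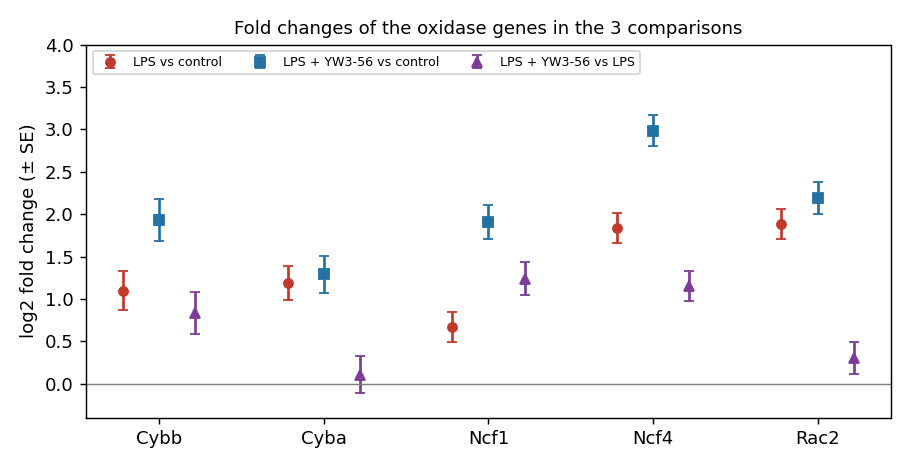
Fitted log2 fold changes (vertical axis) of the 5 oxidase genes in the 3 comparisons, with bars of 1 SE on each side and a grey line at 0. Ncf1 has the lowest value for LPS against control (0.67) and the highest for dual treatment against LPS (1.24), and Cyba lies near 0 in the latter (0.10).

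Levels of different genes were set side by side as CPM per kb of annotated exon. In controls Cyba was highest, at 32.7 ± 3.03 CPM per kb (SD, n = 3), followed by Ncf1 at 8.50 ± 1.57, Rac2 at 8.14 ± 1.28, Cybb at 5.76 ± 0.962 and Ncf4 at 3.87 ± 0.721 CPM per kb. Ncf1 and Rac2 differed there by less than their spread. With the longest transcript as length they were at 10.8 ± 2.00 and 8.29 ± 1.31 CPM per kb in controls, a difference above either SD. After LPS the order was Cyba at 74.6 ± 21.9 CPM per kb (SD, n = 3), Rac2 at 30.0 ± 6.09, Ncf4 at 13.8 ± 1.28, Ncf1 at 13.5 ± 3.17 and Cybb at 12.3 ± 3.76 CPM per kb, and the last 3 could not be separated beyond their spread. After the dual treatment Cyba stood at 80.2 ± 5.60 CPM per kb (SD, n = 2), Rac2 at 37.1 ± 6.70, Ncf1 at 31.9 ± 1.98, Ncf4 at 30.7 ± 7.07 and Cybb at 22.0 ± 3.90 CPM per kb, where Rac2, Ncf1 and Ncf4 differed by less than the larger SD of each pair. With the longest transcript as length Rac2 was below Ncf4 and Ncf1 in that group. Cyba thus led in every group. Of the length-scaled sum of the 5 genes, Cyba made up 52.8%, 57.5% and 56.5% in the control mice, 54.6%, 52.4% and 46.5% in LPS mice 1, 6 and 7, and 40.8% and 38.8% in the dual-treatment mice. The share of Ncf4 was 7.28%, 6.29% and 6.04% in controls, 9.85%, 8.10% and 11.7% in LPS mice, and 13.7% and 16.4% in the dual-treatment mice. For both genes the dual-treatment shares lay outside the range of the other 6 mice, below it for Cyba and above it for Ncf4.

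The oxidase genes were next set against leukocyte RNA as a whole, as the log2 CPM of each gene minus the mean log2 CPM of 7 tested pan-leukocyte genes in the same library. This reference itself moved. Its mean log2 CPM was 5.99, 5.74 and 5.96 in controls, 7.11, 7.30 and 6.75 in LPS mice and 7.20 and 7.58 in dual-treatment mice. The genes Ptprc, Cd53, Laptm5, Coro1a, Lcp1, Itgb2 and Arhgap30 are shared by most white blood cells, and an eighth listed gene, Evi2b, was under the count filter.

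Relative to this reference, Ncf4 stood at -2.56, -2.83 and -2.83 in control mice, -1.99, -2.27 and -1.90 in LPS mice and -1.31 and -1.21 in dual-treatment mice, so that the 3 groups stayed apart. Rac2 was at -0.90, -1.07 and -1.18 in controls, -0.47, -0.26 and -0.27 in LPS mice and -0.35 and -0.36 in dual-treatment mice, with the treated groups overlapping above the controls. Ncf1 was at -0.88, -1.12 and -0.86 in controls, -1.69, -1.32 and -1.33 in LPS mice and -0.26 and -0.77 in dual-treatment mice. It was therefore lowest in the LPS mice and highest in the dual-treatment mice, without overlap. Cybb was at -0.77, -0.98 and -0.78 in controls, -0.71, -0.90 and -1.22 in LPS mice and -0.39 and -0.41 in dual-treatment mice, where the first 2 groups overlapped and the last stood above both. Cyba was at 0.29, 0.34 and 0.38 in controls, 0.47, 0.42 and 0.09 in LPS mice and 0.26 and 0.02 in dual-treatment mice. The LPS range of Cyba covered that of the controls, and both dual-treatment mice were below the controls. These are descriptions for this reference, and no test was made of them.

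**Figure D3:**
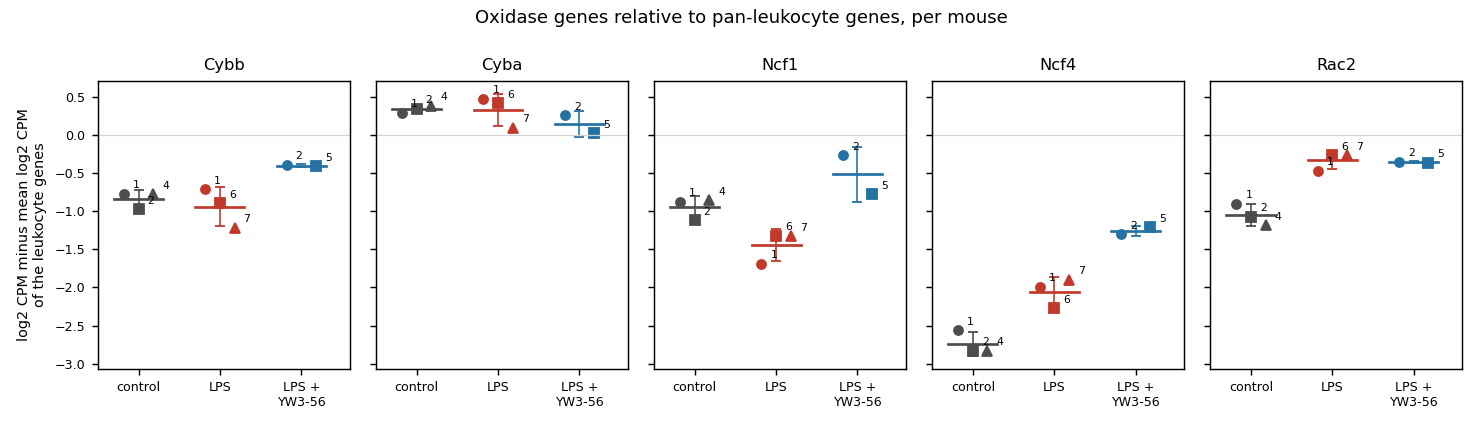
Log2 CPM of each oxidase gene minus the mean log2 CPM of 7 pan-leukocyte genes (vertical axis, shared by the panels) in the 8 mice, with 1 point per mouse, a line at the group mean and a bar of 1 SD on each side. Ncf4 separates all 3 groups, and Ncf1 is lowest in LPS mice (-1.69 to -1.32).

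Which groups overlapped, the size of these differences and for some genes their sign depended on the reference. The 3 groups stayed apart in the same order against the pan-myeloid list and against Ptprc for Ncf4 only. For Cybb, LPS mouse 1 (-0.45) lay above dual-treatment mouse 5 (-0.53) against the pan-myeloid list. For Cyba all LPS mice (0.48 to 0.81) lay above all controls (0.17 to 0.35) against that list, and dual-treatment mouse 2 (0.20) lay inside the control range. For Rac2 both dual-treatment mice (-0.41 and -0.48) lay below every LPS mouse against it. For Ncf1, LPS mice 6 and 7 (-0.93 and -0.94) lay above all controls against it, and dual-treatment mouse 5 (-0.72) lay below LPS mouse 6 (-0.70) against Ptprc. For LPS against control, the mean difference of Cybb was -0.10 against the pan-leukocyte list, 0.31 against 8 pan-myeloid genes and 0.18 against Ptprc alone, the gene of the surface phosphatase CD45. For Cyba the same differences were -0.01, 0.40 and 0.27. Those of Ncf4 were 0.68, 1.10 and 0.97 and those of Rac2 0.72, 1.13 and 0.999, while those of Ncf1 were -0.50, -0.081 and -0.21. Against the pan-leukocyte list, LPS mouse 7 was the lowest LPS mouse for Cybb (-1.22) and Cyba (0.09). The mean of LPS mice 1 and 6 lay above the control mean for both genes, so their negative signs rested on mouse 7. References of a single cell type, chosen after seeing the data, turned signs. Against the 9 mature neutrophil genes all 5 differences between LPS and control were negative, from -2.76 for Ncf1 to -1.54 for Rac2, and against the 10 macrophage genes all were positive, from 1.06 for Ncf1 to 2.27 for Rac2. For dual treatment against LPS, the differences against the neutrophil list were positive, from 0.13 for Cyba to 1.24 for Ncf1. Against the macrophage list they were negative, at -0.82 for Cybb, -1.54 for Cyba, -0.43 for Ncf1, -0.56 for Ncf4 and -1.38 for Rac2.

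Markers of single cell types were compared with the complex because its genes are carried by several of them. Counts over lists are to be read beside the shares of all tested genes called higher and lower, which were 32.6% and 33.9% for LPS against control, 9.13% and 7.02% for dual treatment against control and 31.7% and 27.4% for dual treatment against LPS. The 9 genes of the mature neutrophil list were all called higher with LPS against control, with a median log2FC of 3.06, and 8 were called higher with the dual treatment against control, with a median of 3.70. Their summed level was 232, 130 and 136 CPM in controls, 2361, 3232 and 2041 CPM in LPS mice 1, 6 and 7, and 1866 and 2523 CPM in dual-treatment mice 2 and 5, with S100a9 the most abundant and none of them at 0 counts. Between dual treatment and LPS the list split, with 4 genes higher and 2 lower, and a median log2FC of 0.13 beside 0.06 for all tested genes. S100a8, part of the calprotectin dimer of neutrophils and monocytes, was at 511 and 712 CPM in dual-treatment mice against 576, 846 and 520 CPM in LPS mice. Retnlg and Cxcr2, a granulocyte resistin-like protein and a chemokine receptor, were higher in the dual-treatment mice by a log2FC of 1.49 and 1.48. Ly6g, the surface marker used to identify mouse neutrophils, was at 0.832, 0.141 and 0.368 CPM in controls, 10.1, 26.7 and 11.5 CPM in LPS mice and 0.908 and 3.86 CPM in dual-treatment mice, and fell by 2.75 on the log2 scale from LPS to dual treatment (adjusted p = 0.00732). Il1r2, a decoy receptor for interleukin-1, fell by 1.57 in the same comparison, after a log2FC of 6.54 with LPS against control. With the dual treatment against control Il1r2 and S100a8 had the highest log2FC of the list, 4.97 and 4.21.

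Genes of neutrophil granule proteins moved otherwise. All 8 were called higher with LPS against control (median log2FC 3.37), and 7 of 8 were called lower in dual-treatment than in LPS mice (median -2.20). Their summed level was 271, 257 and 220 CPM in controls, 14700, 15161 and 10795 CPM in LPS mice and 4775 and 1318 CPM in dual-treatment mice, but nearly all of it in treated mice was Lcn2, a siderophore-binding protein that epithelium also makes, at 14051, 14500 and 10156 CPM in LPS mice and 4471 and 1199 CPM in dual-treatment mice. Elane and Mpo, made mainly by neutrophil precursors, were lower in the dual-treatment mice by a log2FC of -4.16 and -4.18 against LPS, with Mpo at 10.3, 8.55 and 6.87 CPM in LPS mice and 0.318 and 0.615 CPM in dual-treatment mice. Lcn2 and Ngp, a granule protein, had the highest log2FC against control, 6.56 and 4.28 with LPS and 4.38 and 3.66 with the dual treatment. With the dual treatment against control 3 of 8 were called higher and 5 had no call (median log2FC 0.61), among them Elane (-0.58), Ltf (-0.15), Mpo (0.08) and Camp (0.19). Ngp had no call between dual treatment and LPS (log2FC -0.62, adjusted p = 0.245). Mpo is also of interest beside the oxidase since myeloperoxidase uses the hydrogen peroxide that the complex supplies.

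Macrophage markers were higher in the dual-treatment group. Of 10 genes, 9 were called higher and 0 lower in dual-treatment than in LPS mice, with a median log2FC of 1.72. With LPS against control 1 was higher and 4 were lower, and with dual treatment against control 7 were higher and 1 was lower. Their summed level was 436, 347 and 426 CPM in controls, 347, 341 and 252 CPM in LPS mice and 1028 and 1068 CPM in dual-treatment mice. Csf1r, the receptor for macrophage colony-stimulating factor, was at 160 and 274 CPM in the dual-treatment mice, and C1qb, a complement chain, at 184 and 169 CPM. C1qa, a complement chain made by macrophages, was at 29.3, 20.3 and 27.1 CPM in controls, 19.6, 18.6 and 17.4 CPM in LPS mice and 122 and 109 CPM in dual-treatment mice, a log2FC of 2.64 between the last 2 groups (adjusted p = 3.71e-06). C1qc, its partner chain, was higher by 2.58 in that comparison. C1qb and Marco, a scavenger receptor, had the highest log2FC of the list with dual treatment against control, 2.40 and 2.23, and C1qb rose with LPS by 0.50. Mertk, a receptor for uptake of dying cells, and Siglecf, a marker of alveolar macrophages and eosinophils, fell with LPS against control by 1.72 and by 1.81 on the log2 scale, and Mertk fell by 0.46 with the dual treatment against control. Thus the mice with the highest Cybb, Ncf1 and Ncf4 also had the highest macrophage sums, but relative to the macrophage list the means of these 3 genes were lower in dual-treatment than in LPS mice, with overlap between the groups for Ncf1. The part of these cells in the oxidase levels was not tested.

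**Figure D4:**
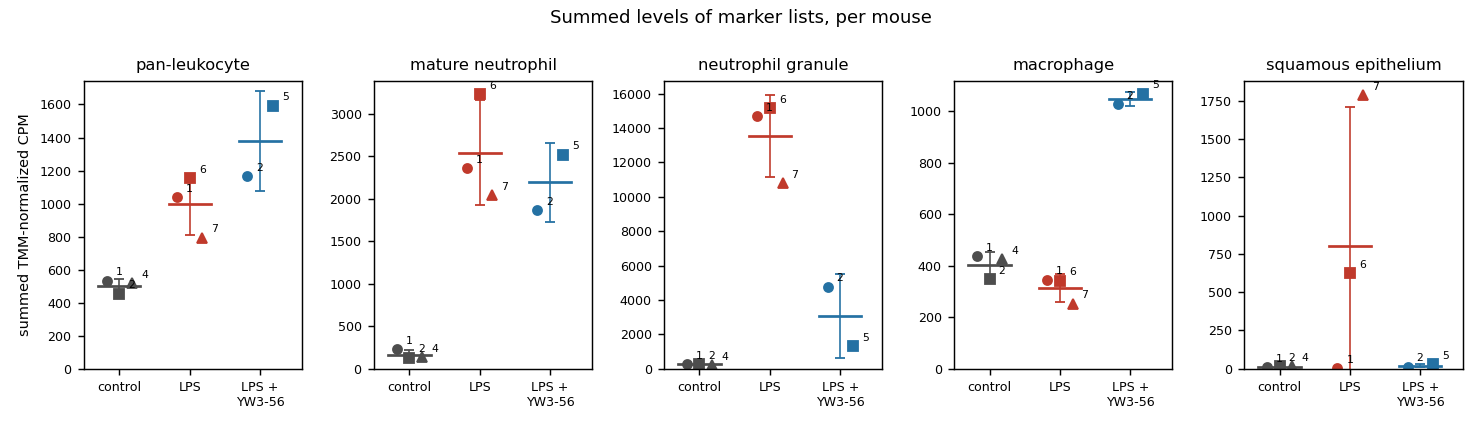
Summed TMM-normalized CPM of 5 marker lists (vertical axes, each starting at 0) in the 8 mice, with 1 point per mouse, a line at the group mean and a bar of 1 SD on each side, which is drawn down to 0 where it would pass it. Macrophage sums are highest in the dual-treatment mice (1028 and 1068 CPM), granule sums are highest in the LPS mice, and squamous sums are high in LPS mice 6 and 7.

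The other marker lists were counted in the same way. Pan-leukocyte genes were called higher in 6 of 7 for LPS against control, 7 of 7 for dual treatment against control and 4 of 7 for dual treatment against LPS, where Cd53, a tetraspanin, was the 1 called lower (log2FC -0.88). Cd53 and Arhgap30, a GTPase-activating protein, had the highest log2FC with LPS against control, 2.31 and 1.58. Coro1a, an actin-binding protein, and Itgb2, the beta chain of leukocyte integrins, had the highest with dual treatment against control, 2.10 and 2.09, and against LPS, 1.04 and 0.98. The summed level of the list was 533, 455 and 520 CPM in controls, 1040, 1155 and 793 CPM in LPS mice and 1164 and 1592 CPM in dual-treatment mice. Ptprc rose by a log2FC of 0.87, 1.51 and 0.64 in the 3 comparisons in turn. Of 8 pan-myeloid genes, 5 were higher and 1 was lower with LPS against control, 7 were higher with dual treatment against control and 5 were higher with dual treatment against LPS, and 3 of these 8 genes also stand in the neutrophil or macrophage list. Fcer1g, the Fc receptor gamma chain, and Lilrb4a, an inhibitory receptor, were the highest of them with LPS against control (log2FC 2.49 and 1.77), and Fcer1g and Tyrobp with dual treatment against control (2.35 and 2.18). Csf1r fell by 1.01 with LPS, and it and Cd68, a lysosomal protein, were the highest with dual treatment against LPS (2.03 and 1.32). Monocyte genes diverged. Ly6c2 and Plac8 rose with LPS by a log2FC of 3.37 and 3.57, while Ccr2, the receptor that brings monocytes into tissue, fell by 3.19 and was higher by 3.77 in dual-treatment than in LPS mice. With dual treatment against control Ly6c2 and Plac8 were higher by 3.52 and 3.11. Cx3cr1, the fractalkine receptor, was at 6.21, 6.10 and 6.71 CPM in controls, 1.25, 0.751 and 0.112 CPM in LPS mice and 1.77 and 20.3 CPM in dual-treatment mice, and Nr4a1, a nuclear receptor, fell by 1.80 from LPS to dual treatment. Over the 5 monocyte genes 3 were higher and 2 lower with LPS against control, and 2 were higher and 1 lower with dual treatment against LPS. Of 8 lymphocyte genes 0 were called higher and 3 lower with LPS against control, and 3 higher and 1 lower with dual treatment against LPS. Ms4a1 of B cells fell by 2.62 with LPS and was higher by 3.26 with dual treatment than with LPS, where Cd3d of T cells was lower (log2FC -1.29). Ncr1 of natural killer cells stayed at or under 3.34 CPM in every library. All 3 dendritic cell genes fell with LPS, among them Clec9a from 64.6, 56.5 and 61.4 CPM in controls to 0.534, 0.520 and 0.781 CPM, and it was at 25.5 and 30.0 CPM in dual-treatment mice. Flt3, a growth factor receptor of these cells, fell by 2.11 with LPS, and Xcr1, a chemokine receptor, was at 0.0908 and 0.0878 CPM in the dual-treatment mice. Among the 7 structural genes of the lung, 1 was higher and 4 were lower with LPS against control, with Pecam1 of endothelium falling by 1.52 and Sftpc by 0.93. Col1a1, a collagen of fibroblasts, fell by 1.20, and Scgb1a1 rose by 0.79. In the dual-treatment mice 2 were higher than with LPS alone, Pecam1 (log2FC 2.12) and Col1a1 (1.14), and 2 were lower, Scgb1a1 (-1.28) and Ager of alveolar type I cells (-0.68). With dual treatment against control, Pecam1 rose by 0.60 and Ager fell by 0.94. Of the squamous genes Ivl, a cornified envelope protein, was at 2.69, 2.25 and 2.81 CPM in controls, 0.356, 0.0578 and 0.0558 CPM in LPS mice and 1.91 and 2.90 CPM in dual-treatment mice. Myh4, a muscle myosin, was at 57.6 CPM in LPS mouse 7 and at or under 3.98 CPM in every other mouse.

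Among 12 receptors that prime or trigger the oxidase, 10 were called higher and 0 lower with LPS against control, with a median log2FC of 1.77, and likewise 10 higher and 0 lower with the dual treatment against control, with a median of 2.08. Dual treatment against LPS gave 5 higher and 3 lower, with a median of 0.28, beside 31.7% and 27.4% of all tested genes. Only 1 was called higher without dual-treatment mouse 2, with the same assumption on the lone mouse left, and 3 without LPS mouse 7. Itgam, the alpha chain of the complement receptor CR3, was at 6.66, 4.79 and 6.76 CPM in controls, 42.4, 73.4 and 50.5 CPM in LPS mice and 130 and 83.4 CPM in dual-treatment mice. Fpr1, a receptor for formylated bacterial peptides, was at 13.8, 9.90 and 11.7 CPM in controls, 13.8, 24.5 and 12.1 CPM in LPS mice and 51.9 and 64.9 CPM in dual-treatment mice. Itgam thus separated all groups, whereas Fpr1 overlapped between control and LPS mice and was high in both dual-treatment mice, with a log2FC of 1.80 ± 0.27 against LPS (adjusted p = 0.000419). Against control, Itgam had a log2FC of 3.19 with LPS and 4.13 with the dual treatment. The receptor gene Fpr2, related to Fpr1, rose with LPS by 2.71 and with the dual treatment by 3.09 on the log2 scale, both against control. Fcgr4, an activating Fc receptor, rose with LPS by 3.58. It and Ptafr, the receptor for platelet-activating factor, were lower in dual-treatment than in LPS mice by a log2FC of -0.75 and -0.81, and Fcgr1, the high-affinity Fc receptor, was higher by 0.98. Fcgr1 was at 50.5 and 22.1 CPM in dual-treatment mice 2 and 5, and mouse 5 was close to LPS mouse 1 at 21.4 CPM.

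Of 17 genes for signalling to the complex, its assembly and its support, 12 were called higher and 1 lower with LPS against control (median log2FC 0.64), 9 higher and 0 lower with the dual treatment against control (median 0.58), and 9 higher and 2 lower with dual treatment against LPS (median 0.61). For LPS against control, scaling by library totals only gave 5 higher and 2 lower, and the fold rule of the study 3 higher and 0 lower. By adjusted p, shares of all tested genes called higher and lower were 32.6% and 33.9%, 9.13% and 7.02%, and 31.7% and 27.4% in the comparisons in turn. Cybc1 encodes Eros, the chaperone needed for gp91phox protein to accumulate. It was at 51.6, 55.3 and 54.4 CPM in controls, 37.4, 40.0 and 34.7 CPM in LPS mice and 63.3 and 71.5 CPM in dual-treatment mice. It was therefore lower in every LPS mouse than in any control while Cybb was higher, with a log2FC of -0.52 ± 0.09 (adjusted p = 0.000823), and higher with dual treatment than with LPS by 0.85 ± 0.10 (adjusted p = 0.000112). Rac1, the Rac GTPase found in most cells, was at 247, 266 and 256 CPM in controls, 507, 480 and 443 CPM in LPS mice and 304 and 318 CPM in dual-treatment mice. Unlike Rac2, it was called lower in dual-treatment than in LPS mice, with a log2FC of -0.62 ± 0.11 (adjusted p = 0.00111). Hvcn1, the proton channel that balances the charge moved by the oxidase, was at 6.51, 5.07 and 6.44 CPM in controls, 11.9, 11.1 and 6.36 CPM in LPS mice and 8.12 and 6.67 CPM in dual-treatment mice, where LPS mouse 7 lay among the controls.

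Among the kinases and exchange factors upstream of the complex, Dock2, which loads Rac with GTP, was at 14.7, 14.3 and 17.1 CPM in controls, 18.9, 18.3 and 14.5 CPM in LPS mice and 42.2 and 52.1 CPM in dual-treatment mice. Its log2FC between dual treatment and LPS was 1.45 ± 0.16 (adjusted p = 5.81e-05), while that between LPS and control was 0.16 with an adjusted p of 0.339. Pik3cg, the catalytic subunit of PI3-kinase gamma, rose by a log2FC of 1.94 with the dual treatment against control and was higher by 1.16 than with LPS, and its regulatory subunit Pik3r5 by 1.31 with LPS against control. Pik3cg was at 34.3 and 14.75 CPM in dual-treatment mice 2 and 5, against 11.9, 11.5 and 9.60 CPM in LPS mice 1, 6 and 7. Its excess over LPS thus lay mostly in dual-treatment mouse 2. Prkcb, a protein kinase C that phosphorylates p47phox, rose by 1.30 with LPS and by 1.96 with the dual treatment, both against control. Pak1, a kinase that acts downstream of Rac, was lower in dual-treatment than in LPS mice by a log2FC of -0.89.

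Of 7 transcription factors known to drive oxidase genes or myeloid differentiation, 5 were called higher and 1 lower with LPS against control (median log2FC 2.17), 3 higher and 0 lower with the dual treatment against control (median 0.38) and 2 higher and 3 lower with dual treatment against LPS (median -0.25). The 3 higher became 1 without dual-treatment mouse 2 or control mouse 4. Shares of all tested genes called higher and lower were 32.6% and 33.9%, 9.13% and 7.02%, and 31.7% and 27.4% in turn. The 2 of 7 called higher with dual treatment against LPS are near that share. Spi1, which encodes PU.1 of myeloid cells, was at 29.4, 22.5 and 32.5 CPM in controls, 136, 198 and 118 CPM in LPS mice and 107 and 146 CPM in dual-treatment mice. Irf1, an interferon-induced factor, was at 124, 140 and 146 CPM in controls, 1122, 715 and 802 CPM in LPS mice and 110 and 120 CPM in dual-treatment mice. Irf8, a factor of monocytes and dendritic cells, was at 37.1, 35.3 and 41.0 CPM in controls, 198, 165 and 149 CPM in LPS mice and 51.4 and 47.2 CPM in dual-treatment mice. Spi1 thus overlapped between the treated groups, whereas Irf1 and Irf8 were high in the LPS mice and near the control range in the dual-treatment mice, with a log2FC of -2.94 and -1.79 between dual treatment and LPS. Irf1 had the highest log2FC with LPS against control (2.68) and Spi1 a log2FC of 2.17 with the dual treatment against control. Cebpa, a factor of alveolar type II cells and of myeloid progenitors, fell with LPS against control by 1.09 and was higher by 0.78 with dual treatment than with LPS, and Cebpe, a factor of late granulocyte development, stayed at or under 3.64 CPM in every library.

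Other members of the NADPH oxidase family were mostly scarce in these lungs. Nox3 had no count in any library and 8 of the 9 listed genes were tested, of which 6 were higher and 1 was lower with LPS against control (median log2FC 1.84), 1 higher and 1 lower with the dual treatment against control (median 0.16) and 2 higher and 4 lower with dual treatment against LPS (median -1.39). The 6 higher genes became 4 without LPS mouse 6, LPS mouse 7 or control mouse 1. Among them Duox1 was at 0.237, 1.33 and 1.84 CPM in LPS mice 1, 6 and 7 and Duoxa1, a maturation factor, at 0, 0.751 and 1.23 CPM, so both were highest in the 2 libraries with squamous and muscle transcripts. Over all tested genes, the shares higher and lower were 32.6% and 33.9%, 9.13% and 7.02%, and 31.7% and 27.4% in the comparisons in turn. Nox4, an oxidase of endothelium and fibroblasts that is active without cytosolic subunits, was the exception in level. It was at 72.9, 57.9 and 67.8 CPM in controls, 15.8, 18.0 and 18.0 CPM in LPS mice and 42.6 and 30.4 CPM in dual-treatment mice. The order of the groups was the reverse of that of the phagocyte genes for LPS against control, with a log2FC of -1.94 ± 0.15 (adjusted p = 4.48e-06), and Nox4 was higher with dual treatment than with LPS by 1.08 ± 0.16 (adjusted p = 0.000365). Against control, Nox4 fell by 0.86 with the dual treatment. Duox1 and Duoxa2, an oxidase of airway epithelium and a maturation factor for such oxidases, stayed at or under 1.84 and 4.57 CPM, and Duox1 had no count in either dual-treatment mouse, so its fold is not given. Noxa1, an activator of Nox1, was at 17.3 and 7.99 CPM in the dual-treatment mice and rose by a log2FC of 2.14 against control, a call that was lost without dual-treatment mouse 2. Nox1, found mainly in colon, reached 2.33 CPM in dual-treatment mouse 5.

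Of 14 enzymes that use or remove superoxide and peroxide, 13 were tested, with 5 higher and 4 lower for LPS against control (median log2FC -0.12), 4 higher and 1 lower for dual treatment against control (median 0.11) and 6 higher and 4 lower for dual treatment against LPS (median 0.23). Sod2, the superoxide dismutase of mitochondria, was at 105, 126 and 119 CPM in controls, 1123, 935 and 790 CPM in LPS mice and 274 and 198 CPM in dual-treatment mice. Cat, the catalase that splits hydrogen peroxide, was at 226, 253 and 258 CPM in controls, 81.9, 62.9 and 87.0 CPM in LPS mice and 163 and 196 CPM in dual-treatment mice. The 3 groups were apart for both genes, in opposite order, with a log2FC of 3.02 and -1.67 for LPS against control and of -2.01 and 1.22 for dual treatment against LPS, and Sod2 was still above control with the dual treatment (1.01). Mpo rose with LPS by 4.25. Sod3, the extracellular dismutase, fell with LPS by 0.79. Gpx1, a glutathione peroxidase, was higher in dual-treatment than in LPS mice by a log2FC of 0.83. Prdx5 and Prdx6, peroxiredoxins, both had calls with dual treatment against control, of 1.03 and -0.58. The call of Prdx6 was lost without dual-treatment mouse 2, control mouse 1 or control mouse 2. For LPS against control, the counts over these enzymes are near the shares over all tested genes, 32.6% higher and 33.9% lower. For dual treatment against LPS, 6 of 13 were higher beside a share of 31.7%, and 4 of 13 lower beside 27.4%. For dual treatment against control the shares were 9.13% and 7.02%. By the fold rule of the study, 1 of 13 was higher with dual treatment against LPS, beside a share of 20.6%.

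The genes whose profile over the 8 mice lay closest to each oxidase gene were found by the root mean square difference of gene-centred log2 CPM. For Cybb they were Was, the actin regulator mutated in Wiskott-Aldrich syndrome, at a difference of 0.18, Tyrobp, an adaptor of myeloid receptors, at 0.19 and Cotl1, an actin-binding protein, at 0.20. For Cyba they were the pseudogene Actr3-ps at 0.15, whose reads may come from its parent gene, Mpeg1, the pore-forming perforin-2 of macrophages, at 0.16 and Irf5 at 0.16. Ncf1 was closest to the actin capping gene Capg at 0.15, to Rab32 at 0.16 and to Naip2, an inflammasome sensor, at 0.17. Ncf4 was closest to the Src-family kinase gene Fgr at 0.18, to the nucleoside transporter gene Slc28a2 at 0.19 and to AB124611 at 0.27. Rac2 was closest to Hcls1, a cortactin relative of blood cells, at 0.13, to Metrnl at 0.16 and to Clec5a, a myeloid lectin, at 0.17. Between members themselves the differences ran from 0.31 for Cybb and Cyba to 0.69 for Cyba and Ncf4. The nearest genes were picked as the smallest differences among all tested genes. Their values therefore cannot be weighed against those between members.

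In GRCm39 the genes lie on 4 chromosomes. Cybb (ENSMUSG00000015340) spans chrX:9301491-9354010, Cyba (ENSMUSG00000006519) chr8:123150422-123159706 and Ncf1 (ENSMUSG00000015950) chr5:134248907-134258479, all on the minus strand. Ncf4 (ENSMUSG00000071715) spans chr15:78128982-78146784 on the plus strand, and Rac2 (ENSMUSG00000033220) chr15:78443367-78457429 on the minus strand. Cybb and Cyba also share 304 and 423 exon bases with Xk and Il17c on the opposite strand, which had 234 and 76 counts over the 8 libraries. Rac2 shares 86 exon bases with the noncoding RNA gene Gm63166 on the opposite strand, which was not among the counted genes.

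The promoters of the members were searched for motifs of myeloid and inflammatory factors. The RefSeq promoter table (build GRCm38.p6, 250 bases before to 50 after the start) held 3 of the 5 genes, Cybb, Cyba and Ncf1, and each sequence was located by an exact match to GRCm39. On both strands, the ETS motif of PU.1 (GAGGAA) is held by 28.3% of the 32851 promoters in the table, the IRF motif (GAAANNGAA) by 8.56%, the AP-1 motif (TGANTCA) by 7.81%, the C/EBP motif (TTNNGNAA) by 40.7%, the GAS motif (TTCNNNGAA) by 8.30% and the NF-kB consensus by 8.46%. Cybb held the IRF motif at 3 positions, the AP-1 motif once, and the ETS motif from base 10 to base 15 after the start. Ncf1 held the IRF motif and the GAS motif, which overlap by 3 bases, and Cyba held none of the 6. A match is a description of the letters and says nothing of binding. The 170 bases before the start are shown for the genes with matches, with the IRF, AP-1 and GAS letters in capitals. The Cybb stretch, chrX:9335564-9335733 on the minus strand, lies inside the annotated Cybb gene with 7 of its bases in an annotated exon, and the Ncf1 stretch, chr5:134258480-134258649 on the minus strand, overlaps no annotated gene.
Cybb: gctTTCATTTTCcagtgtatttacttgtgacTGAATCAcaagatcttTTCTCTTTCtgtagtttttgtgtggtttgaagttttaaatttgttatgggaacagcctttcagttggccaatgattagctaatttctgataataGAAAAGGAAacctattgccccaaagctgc
Ncf1: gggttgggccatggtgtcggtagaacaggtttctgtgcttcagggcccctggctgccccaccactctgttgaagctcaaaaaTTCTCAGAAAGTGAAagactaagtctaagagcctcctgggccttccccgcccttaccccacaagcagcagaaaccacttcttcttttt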

How the data were processed

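Lung RNA-seq counts of 8 mice were analysed. Reads had been quality-checked with FastQC 0.11.9, trimmed with Trim Galore, aligned to GRCm39 with HISAT2 2.2.1 and counted per gene with featureCounts 2.0.1, and the authors deposited raw counts without normalization. Totals were 19061949 to 20908608 counts per library. Gene symbols, lengths and positions came from GENCODE annotation, which matched 54749 of 55416 identifiers. In R 4.3.3, edgeR 4.0.16 scaled the libraries by TMM, kept genes that passed filterByExpr for the groups, and tested them by quasi-likelihood in 1 fit of the 8 libraries (5 residual degrees of freedom), with Benjamini-Hochberg adjustment over 18560 tested genes. A gene was called at an adjusted p under 0.05. SE was the absolute log2FC over the square root of F. Log2 CPM used a prior count of 2. The procedure was tested on simulated counts. Alternatives were DESeq2 1.42.0, other scaling and filters, fits of 2 groups, the fold criterion of the study's methods and leaving out each mouse. The members and lists were chosen with earlier results of these data known. Genes named by rule are the 5 members, 11 fixed genes, the 2 highest and 2 lowest called genes of the lists in each comparison, and the 3 nearest profiles of each member, and 1 such list gene is left out of the text. Other genes are named as parts of a list, some after seeing the data, or for overlapping a member.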

Additional observations from a re-analysis of the deposited data

How the results depend on the processing

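Of 240 refitted log2FC values of the 5 oxidase genes, 234 kept the direction or the absence of a call, 4 lost a call and 2 gained one. The number of the 5 genes called higher was 5 in every alternative for dual treatment against control, 4 to 5 for LPS against control and 2 to 4 for dual treatment against LPS. Scaling by library totals only moved the median log2FC of all tested genes to -0.29 for LPS against control and 0.38 for dual treatment against LPS, and the share of calls that were higher from 49.0% to 35.6% and from 53.6% to 71.0%. In that setting Ncf1 with LPS against control had a log2FC of 0.39, which is 0.68 above that median, and Rac2 with dual treatment against LPS had 0.63, which is 0.25 above it. Without LPS mice 6 and 7, chosen after seeing the data, the single LPS mouse left is assumed to vary like the other groups, and Ncf1 for LPS against control was at 0.46 and Cybb for dual treatment against LPS at 0.60 (log2FC). The cause was not tested. Leaving out each mouse in turn, the dual treatment against LPS gave Cybb a log2FC of 0.59 to 0.98 and Rac2 of 0.085 to 0.47. Over all alternatives the adjusted p ran from 0.000412 to 0.0962 for Ncf1 with LPS against control, and for dual treatment against LPS from 0.000112 to 0.121 for Cybb and from 0.0157 to 0.783 for Rac2.

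For dual treatment against control, the number of genes called in all was 2997, and it was 1220 without dual-treatment mouse 2, and 1788, 1553 and 1710 without control mice 1, 2 and 4. The other alternatives gave 2846 to 3841. Where a dual-treatment mouse is left out, the lone mouse of that group is assumed to vary like the other groups.

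Relative to leukocyte genes, values moved with the reference. For LPS against control the pan-myeloid list gave log2 differences of 0.31 for Cybb, 0.40 for Cyba, -0.081 for Ncf1, 1.10 for Ncf4 and 1.13 for Rac2, and Ptprc alone gave 0.18, 0.27, -0.21, 0.97 and 0.999. For dual treatment against LPS the pan-leukocyte values of 0.54, -0.19, 0.93, 0.79 and -0.02 became 0.10, -0.62, 0.49, 0.36 and -0.46 with the pan-myeloid list and 0.27, -0.45, 0.66, 0.53 and -0.29 with Ptprc. References of a single cell type were chosen after seeing the data. In the order Cybb, Cyba, Ncf1, Ncf4 and Rac2, the mature neutrophil list gave -2.36, -2.27, -2.76, -1.58 and -1.54 for LPS against control, -1.50, -2.14, -1.51, -0.47 and -1.25 for dual treatment against control and 0.86, 0.13, 1.24, 1.11 and 0.29 for dual treatment against LPS. The macrophage list gave 1.46, 1.54, 1.06, 2.24 and 2.27, then 0.64, 0.0012, 0.63, 1.68 and 0.89, and then -0.82, -1.54, -0.43, -0.56 and -1.38. Leaving out each mouse moved Ncf1 against the pan-leukocyte list between 0.18 and 0.68 for dual treatment against control. For dual treatment against LPS it moved Ncf1 between 0.67 and 1.18. The pan-leukocyte values of Cybb and Cyba for LPS against control, -0.10 and -0.01, rested on LPS mouse 7 for their sign. That of Rac2 for dual treatment against LPS, -0.02, was smaller than the spread of the LPS mice (-0.47 to -0.26).

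With the longest transcript as length, which is shorter than the exon union, levels were 7.03 (Cybb), 40.3 (Cyba), 10.8 (Ncf1) and 5.61 (Ncf4) CPM per kb in controls, 17.2 (Ncf1) and 20.0 (Ncf4) after LPS, and 26.8 (Cybb), 98.6 (Cyba), 40.6 (Ncf1) and 44.4 (Ncf4) after the dual treatment, where Rac2 passed from the second place to the fourth. Library totals only gave 12.1 CPM per kb for Ncf4 after LPS and 88.1 for Cyba and 35.1 for Ncf1 after the dual treatment.

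Of 480 recomputed counts of called genes in the pathway lists, 60 were more than 1.5 times away from the reported count. They are given here as reported count to recomputed count. The fold rule gave, for priming receptors, 0 to 1 lower with dual treatment against control, and 5 to 1 higher and 3 to 0 lower with dual treatment against LPS. For signalling and assembly it gave 12 to 3 higher and 1 to 0 lower with LPS against control, and 9 to 3 higher and 2 to 0 lower with dual treatment against LPS. It gave 2 to 0 higher transcription factors with dual treatment against LPS, and 1 to 2 higher and 1 to 0 lower other oxidase family genes with dual treatment against control. For the enzymes it gave 5 to 3 higher and 4 to 1 lower with LPS against control, 4 to 2 higher and 1 to 0 lower with dual treatment against control, and 6 to 1 higher with dual treatment against LPS. Library totals only gave 0 to 1 lower priming receptors, 12 to 5 higher and 1 to 2 lower signalling genes and 4 to 7 lower enzymes with LPS against control, 1 to 2 lower enzymes with dual treatment against control, and 3 to 1 lower priming receptors with dual treatment against LPS. At least 10 counts in every library gave 1 to 2 lower signalling genes and 6 to 2 higher other oxidase family genes with LPS against control, 2 to 1 higher and 4 to 1 lower of that family with dual treatment against LPS, and 1 to 2 lower enzymes with dual treatment against control. No low-count filter gave 0 to 1 lower priming receptors in either comparison with control, 1 to 2 lower signalling genes with LPS against control, and 1 to 2 higher other oxidase family genes and 1 to 3 lower enzymes with dual treatment against control. Fits of the compared groups only gave 0 to 1 lower priming receptors and 1 to 2 lower signalling genes with LPS against control, and 1 to 3 lower enzymes with dual treatment against control. DESeq2 gave 0 to 1 lower priming receptors and 1 to 3 lower enzymes with dual treatment against control. RLE and upper quartile factors each gave 1 to 2 lower enzymes in that comparison, and upper quartile factors 1 to 2 lower signalling genes with LPS against control. Leaving out each mouse gave, with LPS against control, 0 to 1 lower priming receptors and 1 to 2 lower signalling genes. With dual treatment against control it gave 0 to 1 lower priming receptors, 1 to 4 higher transcription factors, 0 to 1 higher other oxidase family genes, and 2 to 4 higher and 0 to 2 lower enzymes. With dual treatment against LPS it gave 1 to 7 higher priming receptors, and 1 to 2 higher and 2 to 4 lower other oxidase family genes. In these last 3 sentences the numbers are the lowest and highest counts.

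No paired analysis was possible because the mice were divided at random among the groups and each belonged to a single group. Numbers shared between groups therefore name different mice.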
